A study of Mus musculus with 6 samples.

Results

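Na,K-ATPase beta subunits and inward rectifier potassium channels were described across the cell classes of the mouse posterior eye, for 7 genes of the 33696 in the count matrices: Atp1b1, Atp1b2, Atp1b3, Kcnj13, Kcnj10, Kcnj14 and Kcnj8. The members were chosen on raw UMI counts summed per library and cell class in these same libraries, with the tropicamide to saline difference in view. Their levels, beta subunit shares and treatment differences are therefore given as a description and support nothing further. The study treated 12 mice per group with eye drops and analysed right eyes only, as 3 pools of 4 eyes per group. The tropicamide group received 6 drops of tropicamide, a muscarinic antagonist that relaxes the ciliary muscle, at intervals of 10 min, and tissue was taken 1 h later. The saline group received saline at the same interval and is labelled as having a contracted ciliary muscle. Lens, cornea and iris with ciliary body were cut away, and sclera, choroid and retina were dissociated. The labels give no strain, age or sex.

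The Na,K-ATPase exports sodium and imports potassium, and pairs a catalytic alpha subunit with a glycosylated beta subunit that is needed for its folding and delivery to the membrane. In photoreceptors the pump in the inner segment removes the sodium that enters through the light-sensitive channels of the outer segment, and in the pigment epithelium, unlike in most epithelia, the pump lies in the apical membrane that faces the photoreceptors. Inward rectifier (Kir) channels return potassium across the membrane near the resting potential, in the pigment epithelium mainly through Kcnj13 (Kir7.1), in Müller glia through Kcnj10 (Kir4.1), and in mural cells through Kcnj8 (Kir6.1), the pore of an ATP-sensitive channel.

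The libraries held 66434 barcodes and 60096 cells after filters, with 26612440 to 40108644 UMIs per library in the kept cells. Of 65910 distinct barcodes, 522 (0.792%) occurred in more than 1 library. Cells were clustered and named from marker lists, and a class is called by its list with "-like"; 16 classes had at least 10 cells in every pool, 11 of them named and 5 unnamed clusters called by number. All markers of the rod-like, cone-like, Müller glia-like, retinal pigment epithelium-like, smooth muscle-like and pericyte-like classes were detected with at least 3 UMIs (8 or 9 markers per list). Against the stated dissection, 82 ciliary or iris epithelium-like cells and 176 corneal or conjunctival epithelium-like cells were present. Levels are CPM (the gene's UMIs over all UMIs of the class in a pool, scaled as is usual for that unit), and a UMI count does not scale with transcript length, so that levels of different genes are set side by side as UMI counts. Free RNA was not removed; beside a level, the level that free rod RNA would give is the rod level of the gene times the ratio of Cnga1, a channel gene of rods, in the class to Cnga1 in rods. Free pigment epithelium RNA was scaled by Ttr in the same way. Cnga1 was chosen for this after seeing the data. It was taken in place of Gngt1, another rod gene, which was at 1993 ± 150 CPM in cone-like cells against 2508 ± 208 CPM in rods (n = 6).

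The promoters of the 2 members with the highest CPM of the 7 in pigment epithelium-like cells, taken as the 250 bases before the RefSeq gene start (build GRCm38.p6), are printed to show the sequence next to the genes that lead the members in that class. Atp1b1 was also high in amacrine-like cells and Kcnj13 in melanocyte-like cells. Both lie on the minus strand, at chr1:87394730-87394979 for Kcnj13 and chr1:164458356-164458605 for Atp1b1, and are written 5′ to 3′ on that strand.
Kcnj13: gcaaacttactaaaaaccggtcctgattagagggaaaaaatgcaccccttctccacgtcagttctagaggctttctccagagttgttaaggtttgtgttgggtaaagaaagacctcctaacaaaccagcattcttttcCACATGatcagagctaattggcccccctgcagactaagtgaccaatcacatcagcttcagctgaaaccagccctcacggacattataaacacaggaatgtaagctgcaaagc
Atp1b1: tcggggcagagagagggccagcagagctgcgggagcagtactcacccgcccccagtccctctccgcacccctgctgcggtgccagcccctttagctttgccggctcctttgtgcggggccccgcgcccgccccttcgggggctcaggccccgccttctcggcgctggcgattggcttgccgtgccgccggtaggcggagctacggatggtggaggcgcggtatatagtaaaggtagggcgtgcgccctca
Capitals mark the only match, on either strand, to the motifs searched: CATGTG and CACGTG, letters read by E-box factors such as Mitf, and TAATCC, read by Otx2 and Crx. The Kcnj13 match is CATGTG on the other strand, 112 bases before the start. Of 32536 mouse promoters of this length, 12.3% held CATGTG, 6.04% CACGTG and 6.25% TAATCC. The Atp1b1 promoter, at 70.4% GC against 45.2% for Kcnj13, held none of these letters in this window. In the annotation Kcnj13 overlaps Gigyf2 and Atp1b1 overlaps Nme7, each on the opposite strand. No source used here says whether counting was by strand.

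**Figure D1:**
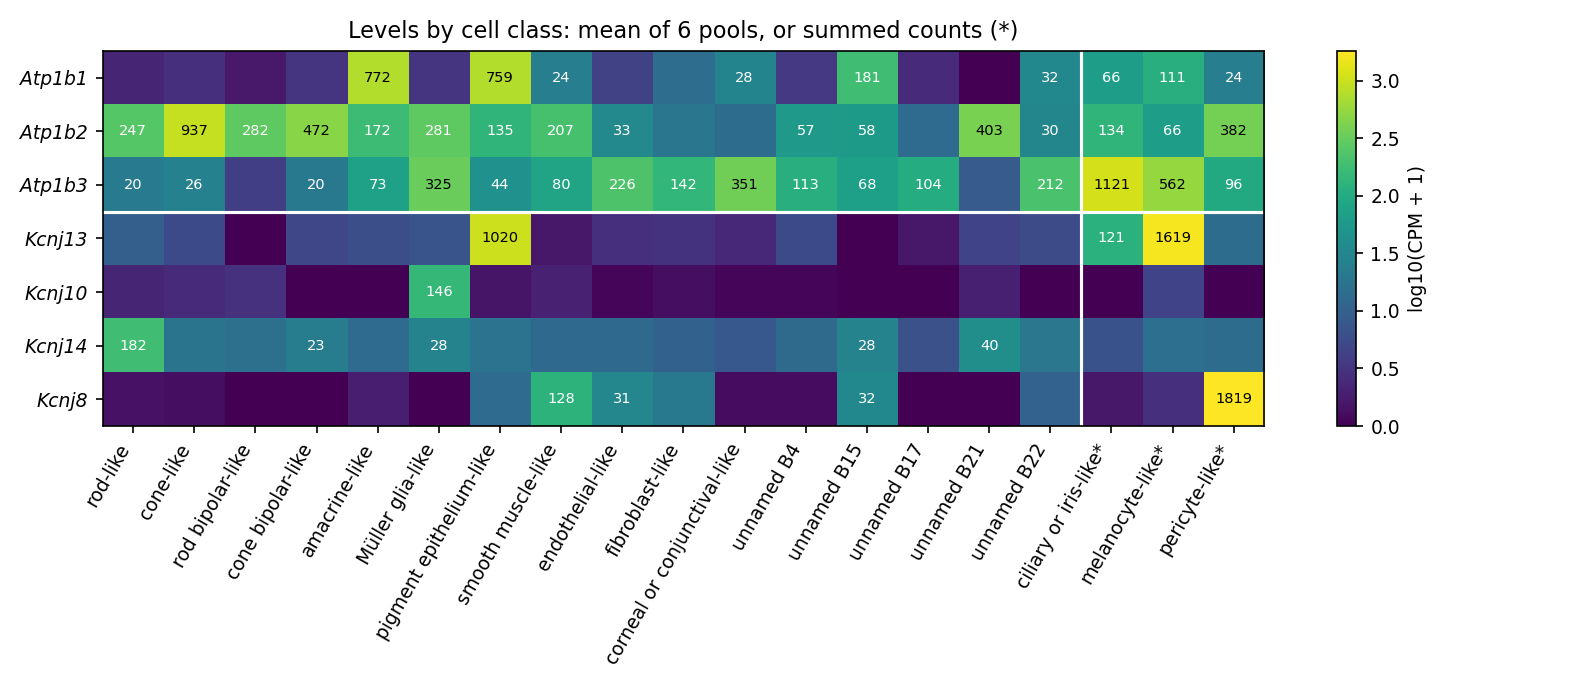
Levels of the 7 members (rows) by cell class (columns), as CPM on a log10 colour scale with values of at least 20 CPM printed; classes without an asterisk are means of 6 pools and classes with one are summed counts. Among the classes shown, Atp1b2 is highest in cone-like cells (937 CPM) and Atp1b1 in amacrine-like and pigment epithelium-like cells (772 and 759 CPM). The highest Kir channel values shown are in melanocyte-like (Kcnj13, from 30 of 135 cells for the most part), Müller glia-like (Kcnj10), rod-like (Kcnj14) and pericyte-like (Kcnj8) cells. The unnamed cluster B26, not shown, had Kcnj14 at 461.5 CPM.

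Atp1b2, which encodes the beta 2 subunit (also known as the glial adhesion molecule AMOG), was the photoreceptor and bipolar cell isoform in these libraries. In cone-like cells its level was 1004, 921 and 923 CPM in the tropicamide pools and 849, 1031 and 895 CPM in the saline pools, a mean of 937 ± 68 CPM (SD, n = 6). In rod-like cells it was 247 ± 8.94 CPM (n = 6), so that the CPM in cones was 3.47 to 4.40 times that in rods of the same pool. Rod-like clusters ran from 111.8 CPM (A6, median 0.195% mitochondrial UMIs) to 328.2 CPM (A2, 2.27%), with A4 (5.2%) at 198.2 CPM. Cone-like clusters were at 899.9 CPM (B9, 4.11%) and 1233 CPM (B27, 12.3%). The part of cell state in the difference between cones and rods was not tested. The range over pools in cone-like cells did not overlap that of any lower class with 10 cells in every pool. Cone bipolar-like cells (472.5 ± 118 CPM), the unnamed cluster B21 led by the neuronal genes Nrxn3 and Cntn5 (403 ± 47.6 CPM), rod bipolar-like cells (282 ± 52.2 CPM), Müller glia-like cells (281 ± 42.7 CPM) and rod-like cells followed, and neighbours in that order overlapped. Below rods came smooth muscle-like cells at 207 ± 15.8 CPM, amacrine-like cells at 172 ± 31.9 CPM and pigment epithelium-like cells at 135 ± 15.6 CPM. The smooth muscle-like level differed between its clusters, at 256.5 CPM in B11 and 85 CPM in B32. Free rod RNA would give 17.2 CPM in cone-like, 20.7 CPM in Müller glia-like, 15 CPM in pigment epithelium-like and 10.8 CPM in smooth muscle-like cells, each below the level measured. In fibroblast-like cells the measured 17.9 ± 3.33 CPM lay beside 7.82 CPM from free rod RNA scaled by Cnga1 and 13.4 CPM scaled by Gngt1. In corneal or conjunctival epithelium-like cells 13 ± 4.92 CPM lay beside 6.67 and 9.33 CPM, and in the unnamed cluster B17, led by Igfbp2 and Angptl7, 12.6 ± 3.53 CPM lay beside 7.62 and 9.76 CPM. These estimates depend on the gene that scales them, and the part of free rod RNA in those low levels was not tested.

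Atp1b1, the beta 1 subunit of most epithelia and of many neurons, was high in only 2 of the named classes with 10 cells in every pool. Pigment epithelium-like cells had 916, 796 and 676 CPM in the tropicamide pools and 729, 674 and 762 CPM in the saline pools (759 ± 90.8 CPM, n = 6). Amacrine-like cells, inhibitory neurons of the inner retina, had 771, 959 and 702 CPM in the tropicamide pools and 705, 691 and 801 CPM in the saline pools (772 ± 102 CPM, n = 6), from 12 to 37 cells per pool. The ranges of these classes overlapped each other and no lower class with 10 cells in every pool. The amacrine-like class is 1 cluster, B29, with a marker score (1 at most) of 1.00 for the amacrine list and 0.87 for the horizontal cell list. No amacrine marker was among its leading genes, and the part of other neurons in it was not tested. Nme7, on the strand opposite Atp1b1, was at 94.6 ± 7.68 CPM in the pigment epithelium-like class. In rod-like, cone-like, rod bipolar-like and Müller glia-like cells Atp1b1 lay at 0.656 to 2.09 CPM, which rests on 1 to 122 UMIs per class. Of 5563 Atp1b1 UMIs in all kept cells, 57.3% came from pigment epithelium-like cells, which were 2.99% of the cells, and 2.19% from rod-like cells, which were 82.6%.

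Atp1b3, the beta 3 subunit, was the main beta isoform of endothelial-like, fibroblast-like and surface epithelium-like cells and 1 of 2 in Müller glia-like cells. Müller glia-like cells had 296, 314 and 381 CPM in the tropicamide pools and 333, 305 and 323 CPM in the saline pools (325 ± 30.3 CPM, n = 6), 14.0 to 20.8 times the level of rod-like cells in the same pool. Corneal or conjunctival epithelium-like cells had 351 ± 90.2 CPM, a range that overlapped that of the Müller glia-like class. Endothelial-like cells had 226 ± 9.81 CPM and fibroblast-like cells 142 ± 12.5 CPM. Their clusters differed, from 163.9 CPM (B40) to 340.8 CPM (B12) in the endothelial-like class. In the fibroblast-like class they ran from 64.1 CPM (B16) to 293.6 CPM (B1), with the others at 126.2 CPM or less. Rod-like cells had 20.4 ± 2.06 CPM and cone-like cells 26.2 ± 5.4 CPM, and those ranges overlapped. Among classes with too few cells for a level in every pool, the 82 ciliary or iris epithelium-like cells stood far above the others. Their 1794 UMIs gave 1121 CPM (95% exact Poisson interval 1070 to 1174, which covers counting error only), with UMIs from all 6 pools.

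Isoform use differed between classes, some with 1 main beta subunit and some mixed, and is given as each gene's share of the summed beta UMIs of a pool. Atp1b2 made up 92 ± 0.717% in rod-like, 97.1 ± 0.699% in cone-like and 98.7 ± 2.04% in rod bipolar-like cells (n = 6 pools). Atp1b1 made up 80.8 ± 2.5% in pigment epithelium-like and 75.8 ± 3.96% in amacrine-like cells. Atp1b3 made up 81.6 ± 2.60% in fibroblast-like, 86.2 ± 2.95% in endothelial-like and 89.8 ± 3.48% in corneal or conjunctival epithelium-like cells. Müller glia-like cells held both other isoforms, with Atp1b2 at 46.1 ± 5.32% and Atp1b3 at 53.6 ± 5.06%, and Atp1b1 at 0.344 ± 0.392%. Smooth muscle-like cells were mixed in another way, with Atp1b2 at 67 ± 4.6%, Atp1b3 at 26 ± 3.59% and Atp1b1 at 6.98 ± 6.51%, and B4 held Atp1b2 at 32.7 ± 5.13% and Atp1b3 at 65.9 ± 5.7%. The smooth muscle-like class joined unlike clusters, of which B11 also had a marker score of 0.80 for the pericyte list. Atp1b2 and Atp1b3 were at 256.5 and 82 CPM in B11 (316 cells), and at 85 and 82.8 CPM in B32 (100 cells). The summed beta level was 965 ± 65.5 CPM in cone-like and 269 ± 8.55 CPM in rod-like cells. Both classes joined clusters that differed in Atp1b2, as given above.

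**Figure D2:**
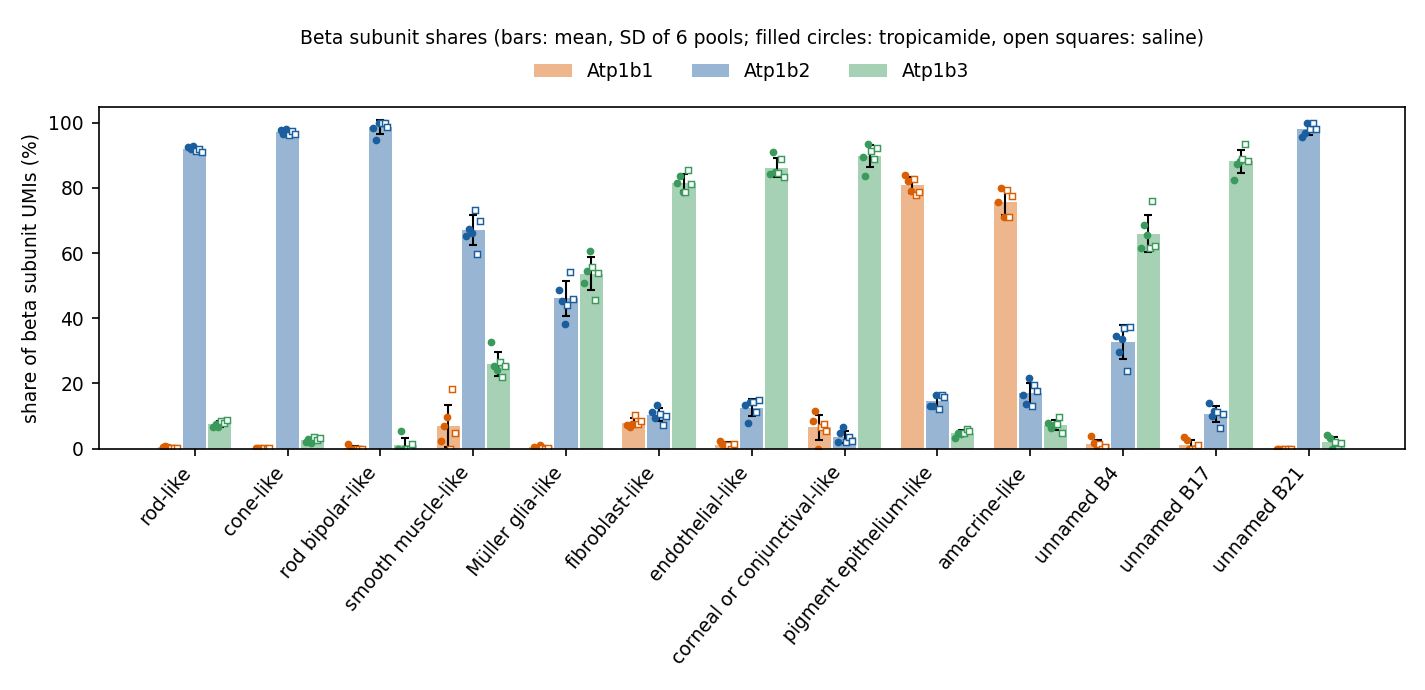
Share of each beta subunit (y axis, % of the beta subunit UMIs of a pool) by class; bars are means with SD of 6 pools, filled circles tropicamide pools and open squares saline pools. Atp1b2 is above 90% in rod-like and cone-like cells in every pool, while Müller glia-like cells split between Atp1b2 (46.1%) and Atp1b3 (53.6%).

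**Figure D3:**
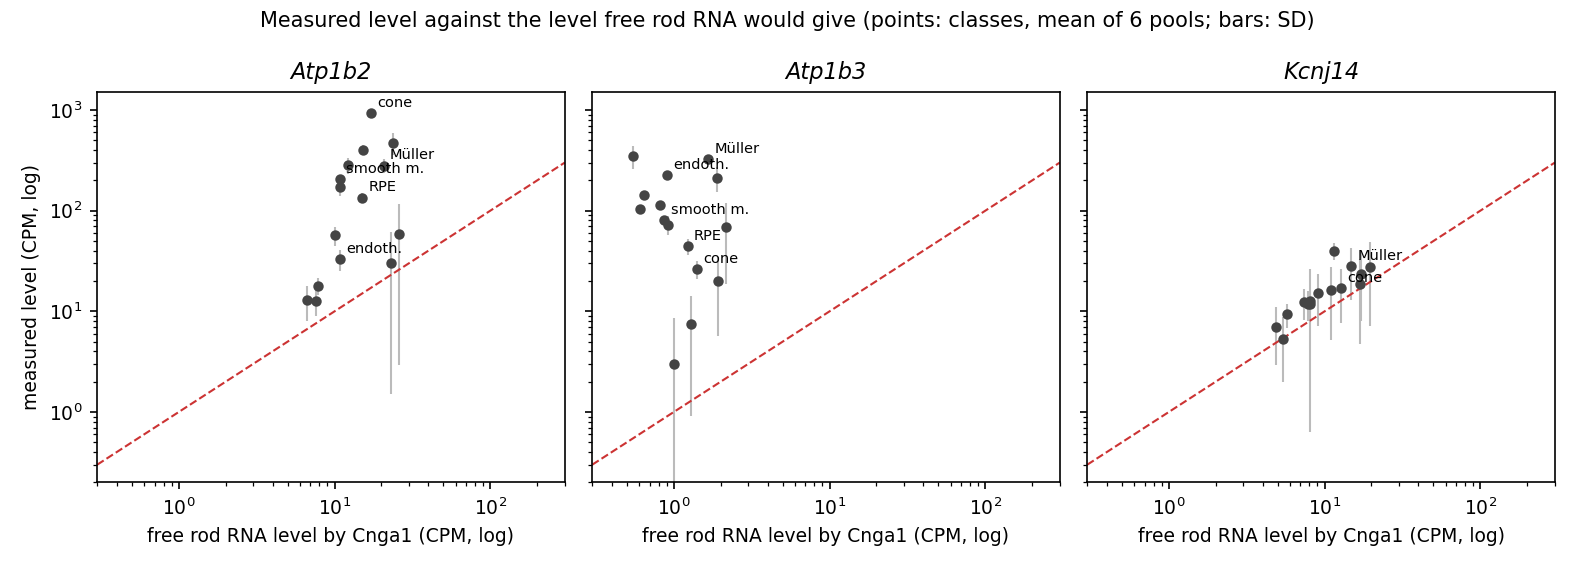
Measured level (y axis, CPM, log scale) against the level that free rod RNA would give (x axis, CPM, log scale), 1 point per class outside rods with the mean and SD of 6 pools; the dashed line marks equal values. The panels show Atp1b2, Atp1b3 and Kcnj14, with free rod RNA scaled by Cnga1. By Cnga1, Kcnj14 lies above the line in every class but B17. It is at 16.9 against 12.7 CPM in cone-like cells, 27.9 against 14.8 CPM in Müller glia-like cells and 40.1 against 11.5 CPM in B21. Scaled by Gngt1, not drawn, the estimate is 29.1 CPM in Müller glia-like, 29.6 CPM in pigment epithelium-like and 14.7 CPM in endothelial-like cells. By Gngt1, Kcnj14 exceeds the estimate only in rod bipolar-like, amacrine-like and corneal or conjunctival epithelium-like cells. Atp1b2 in cone-like cells (937 against 17.2 CPM) and Atp1b3 in Müller glia-like cells lie far above the line.

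Kcnj13 was the Kir channel of pigment cells. Pigment epithelium-like cells had 1187, 1142 and 1076 CPM in the tropicamide pools and 794, 860 and 1061 CPM in the saline pools (1020 ± 158 CPM, n = 6), 93.3 to 155 times the level of rod-like cells. No other class with 10 cells in every pool exceeded 8.61 CPM, the mean of rod-like cells. Rod-like cells nonetheless held 923 Kcnj13 UMIs, and free pigment epithelium RNA would give 1.24 CPM there; Gigyf2, the gene on the opposite strand, was at 227 ± 4.32 CPM in rods. The part of reads from Gigyf2 in that level was not tested. The 135 melanocyte-like cells, neural crest pigment cells of the choroid, held 905 UMIs or 1619 CPM (95% exact Poisson interval 1515 to 1728, which covers counting error only). The pools were far apart, at 2720, 1566 and 1481 CPM after tropicamide and 180, 3266 and 794 CPM after saline, and in saline pools 1 and 3 the level lay below that of pigment epithelium-like cells. Of the UMIs, 813 lay in a cluster of 30 cells (B41, 2642 CPM) in which Kcnj13 was itself among the leading genes beside Dct and Pmel. The remaining cells (B28) were at 366 CPM in sum, below pigment epithelium-like cells. By pool they were at 1189, 803 and 246 CPM after tropicamide, so that tropicamide pool 1 was not below the 1187 CPM of pigment epithelium-like cells. The saline pools of B28 held under 10 cells each and are given no level. Free pigment epithelium RNA would give 1.73 CPM in the melanocyte-like class by Ttr, and Atp1b1 was there at 111 CPM against 759 CPM in pigment epithelium-like cells, with 46 of its 62 UMIs from saline pool 1. Ciliary or iris epithelium-like cells were at 121 CPM (interval 104.8 to 139.5).

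Kcnj10 was by far highest in Müller glia-like cells among the classes with 10 cells in every pool, at 193, 144 and 80.8 CPM in the tropicamide pools and 150, 155 and 151 CPM in the saline pools (145.5 ± 36.3 CPM, n = 6). The tropicamide pools were spread on both sides of the narrow saline range. No other such class exceeded 1.89 CPM. Of 574 Kcnj10 UMIs in all kept cells, 72.3% came from Müller glia-like cells, which were 0.93% of the cells. Another 21.6% came from rod-like cells, which were 82.6%. A UMI of Kcnj10 was found in 38.8% of Müller glia-like cells (median 2759 UMIs) and in 0.242% of rod-like cells (median 2070 UMIs); with every cell thinned to 1000 UMIs, which left out 119 and 9279 cells, the shares were 14.7% and 0.104%. Its channel partner Kcnj16 (Kir5.1) gave 1 UMI in the whole class, whereas the water channel Aqp4, with which Kcnj10 shares the endfoot membrane, was at 692 ± 40.5 CPM. The class joined cluster B8 (379 cells, median 6669 UMIs) and cluster B19 (180 cells, median 1013 UMIs, 9.31% mitochondrial UMIs). Kcnj10 was at 144 CPM in B8 and 191 CPM in B19.

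Kcnj14 (Kir2.4) was the Kir channel of rods. Its 19399 UMIs in rod-like cells were 94.1% of all its UMIs, where rods were 82.6% of cells, at a mean of 182 ± 19.8 CPM (n = 6). Cone-like cells had 16.9 ± 9.22 CPM, beside 12.7 CPM that free rod RNA would give, and 3 of the 6 pools lay under their own free RNA level. A UMI was found in 29.5% of rod-like cells and in 7.33% of the cone-like cells, which are deeper (median 5160 UMIs); thinned to 1000 UMIs the shares were 16.2% and 1.57%, and in amacrine-like cells 1.26%. The part of free rod RNA in the cone level was not tested. B21 was the next highest class after rods, at 40.1 ± 7.79 CPM beside 11.5 CPM from free rod RNA scaled by Cnga1 and 60.1 CPM scaled by Gngt1. The unnamed cluster B26, with the rod genes Gngt1 and Rcvrn among its leading genes, held 112 cells with 6.56% mitochondrial UMIs and Cnga1 at 3692 CPM, against 1702 ± 121 CPM in the rod-like class. In it Kcnj14 was at 461.5 CPM and Atp1b2 at 781 CPM, both above every rod-like cluster, and Atp1b2 made up 97.9% of beta UMIs.

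Kcnj8 was the Kir channel of mural cells. The 102 pericyte-like cells, the contractile cells on capillaries, held 834 UMIs, or 1819 CPM (95% exact Poisson interval 1697 to 1946), from 69 to 202 UMIs in each pool. A UMI was found in 95.1% of them (median 4082 UMIs) and in 0.0947% of rod-like cells (median 2070 UMIs), or 78.9% and 0.0473% with cells thinned to 1000 UMIs. Smooth muscle-like cells were at 175, 111 and 117 CPM in the tropicamide pools and 101, 50.2 and 213 CPM in the saline pools (128 ± 57.7 CPM, n = 6), and the groups overlapped. That level came from 1 of the class's 2 clusters: B11, led by Rgs5 and Acta2, had 208 CPM over 316 cells, and B32, which has the transcription factor gene Tfap2b among its leading genes, had 3.23 CPM over 100 cells. B11 had a marker score of 0.80 for the pericyte list, which holds Rgs5, beside 1.00 for the smooth muscle list. The part of pericytes in the levels of B11 was not tested. Endothelial-like cells had 30.9 ± 19.4 CPM and fibroblast-like cells 19.7 ± 4.54 CPM, and both overlapped their neighbours in the order. In the endothelial-like class 178 of 361 UMIs came from cluster B40, 38 cells of median 24783 UMIs with the mural gene Rgs5 as leading gene. Abcc9, which encodes the sulfonylurea receptor that pairs with Kcnj8, was at 3044 CPM in pericyte-like cells (interval 2887 to 3208) and 191 ± 106 CPM in smooth muscle-like cells. Kcnj11, the other ATP-sensitive pore, gave 4 UMIs in smooth muscle-like cells and none in endothelial-like cells. In pericyte-like cells Atp1b2 was at 382 CPM (interval 327 to 443) and Atp1b3 at 95.9 CPM (interval 69.7 to 129).

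Genes with the most similar pattern were taken over the 16 classes by the Pearson correlation of log2(CPM + 1), among 13669 genes, as a description over classes that share libraries and free RNA. Kcnj14 was most like Cngb1 (0.96), Susd3 and Cnga1 (0.94 each), all highest in rods. Kcnj10 was most like Mlc1 and Prss56 (0.96 each) and Etnppl (0.95), highest in Müller glia-like cells. Kcnj13 was most like Tyrp1 (0.95), Rpe65 (0.93) and Slc45a2 (0.91), genes of pigment cells. Kcnj8 was most like Abcc9 (0.91), Rgs5 (0.89) and Rem1 (0.87). The beta subunits were less closely matched: Atp1b2 by Ckb and Araf (0.90 each) and Dnajc12 (0.89), Atp1b3 by Akr1b10 and Trim12a (0.89 each) and Pdcd6 (0.88), and Atp1b1 by Trir (0.85), Sytl2 (0.80) and Glrx5 (0.78).

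Tropicamide was compared with saline with edgeR's quasi-likelihood test on summed counts in the 7 classes that held 30 cells or more in each pool, with p-values adjusted (Benjamini-Hochberg) over all tested genes of a class. Of 49 member and class pairs, 30 passed the low-count filter, and 19 of these had a mean of at least 20 CPM. A pair that passed had enough counts in at least 3 pools, so that these are not all members in all classes. Of the 19, 1 was called, 8 lay above and 11 below no change, and the median log2 change was -0.03 (range -0.42 to 0.96). The other 11 pairs, below 20 CPM, held 1 call and ranged from -0.50 to 1.94. The 2 calls were in rod-like cells, where 10.1% of all tested genes were called. In the other tested classes 0% to 1.59% of genes were called, so that counts pooled over classes have no single background. Labels do not say whether the pools were processed on separate days, so p-values measure the spread between these pools.

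In rod-like cells Kcnj14 was lower after tropicamide. The tropicamide pools had 168, 162 and 168 CPM and the saline pools 209, 185 and 202 CPM. The groups did not overlap, and Kcnj14 fell by 0.25 on the log2 scale (SE 0.06, edgeR adjusted p = 0.0195). Of the genes tested in rods, 10.1% (1655 of 16308) were called, which is the background to read this and the other rod calls against. The call was lost in 3 of 14 alternative settings, without tropicamide pool 1, tropicamide pool 2 or saline pool 1 (adjusted p 0.0596, 0.0868 and 0.0718), with changes of -0.25 to -0.21. Rod-like cells joined 9 clusters whose shares differed between groups: for tropicamide, A0 held 24.6% to 26.9% of rods per pool, and for saline 33.2% to 38.5%. Within 6 of the 9 clusters, which held 43973 cells, all tropicamide pools lay below all saline pools, and in 8 of 9 the tropicamide mean was below the saline mean. In A0, the largest, the pools were at 147, 143 and 143 CPM against 190, 171 and 175 CPM. Atp1b3, which was not called, also had a lower tropicamide mean in 8 of 9 clusters, and its groups did not overlap in 1. The clusters are cut from the same 6 pools and are not independent repeats. How many of all genes tested in rods separate the groups in as many clusters was not counted. The part of the cluster mix in the Kcnj14 difference was not tested.

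**Figure D4:**
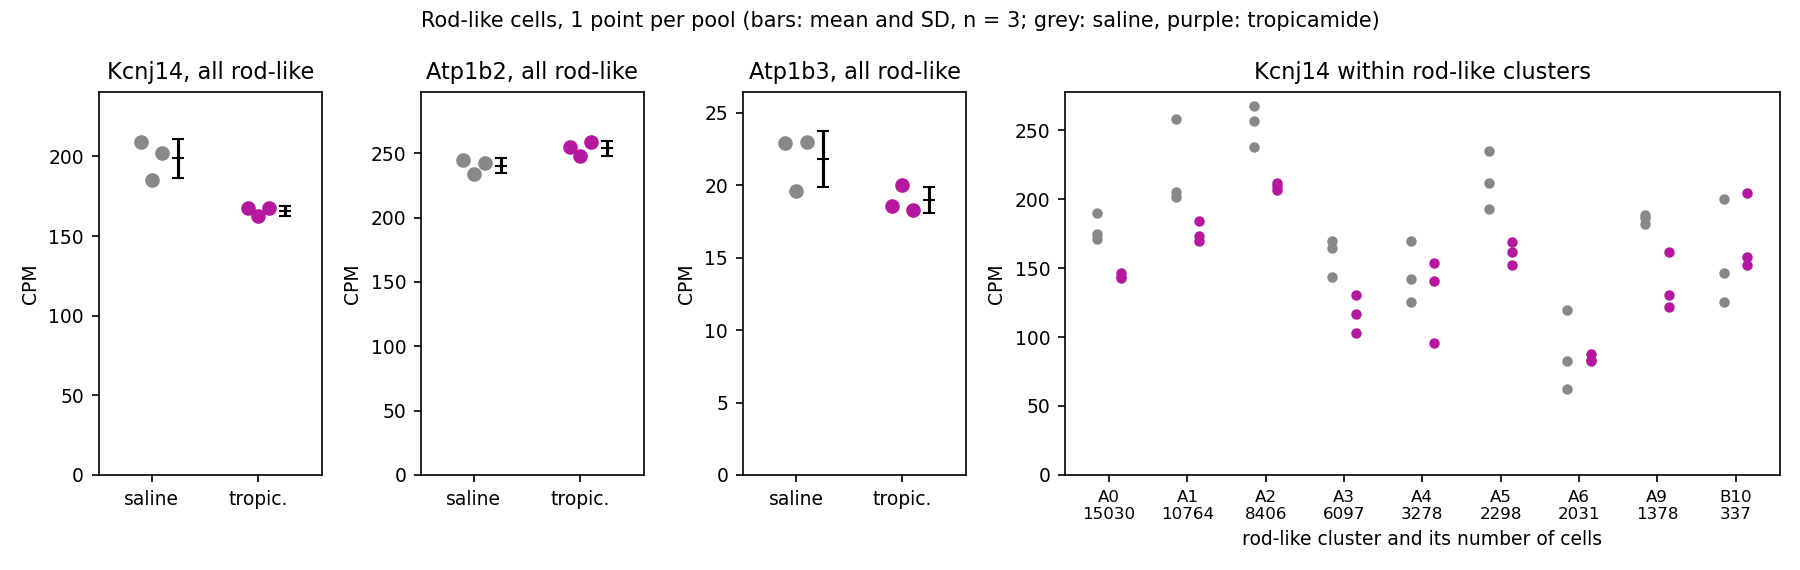
Level (y axis, CPM) of Kcnj14, Atp1b2 and Atp1b3 in rod-like cells by pool, with mean and SD of 3 pools per group (grey saline, purple tropicamide), and of Kcnj14 within each of the 9 rod-like clusters (x axis, with the number of cells). Kcnj14 is lower in all tropicamide pools (162 to 168 CPM) than in all saline pools (185 to 209 CPM), and Atp1b3 overlaps between groups. Kcnj14 does not overlap between groups within 6 of the 9 clusters, which are cut from the same pools.

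Atp1b2 and Atp1b3, which made up most beta UMIs of rods, were not called there. Atp1b2 was at 255, 247 and 259 CPM after tropicamide and 245, 234 and 242 CPM after saline, without overlap but with a change of only 0.09 (SE 0.05, edgeR adjusted p = 0.228). Atp1b3 was at 18.6, 20 and 18.3 CPM against 22.9, 19.6 and 23.0 CPM, which overlapped (-0.19, SE 0.08, edgeR adjusted p = 0.177). Atp1b1 was called higher at the lowest level of the 3, with 1.62, 1.92 and 1.64 CPM after tropicamide against 0.483, 0.417 and 0.819 CPM after saline. Its log2 change was 1.6 (SE 0.31, edgeR adjusted p = 0.0108), on 122 UMIs in 49619 cells, and the call was lost without tropicamide pool 2 (adjusted p = 0.0615). Ttr, a gene of the pigment epithelium marker list, moved with it in rods, at 86.7, 232 and 153 CPM after tropicamide against 25.2, 21.9 and 49.8 CPM. Free pigment epithelium RNA scaled by Ttr would give Atp1b1 levels of 0.933, 2.08 and 1.30 CPM after tropicamide and 0.239, 0.180 and 0.480 CPM after saline. The measured level lay above this estimate in 5 of the 6 pools and below it in tropicamide pool 2. The part of free RNA in this difference was not tested.

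In pigment epithelium-like cells, with 269 to 661 cells per pool after tropicamide and 68 to 184 after saline, no member was called, and 0.125% of genes tested (6 of 4794) were. The Kcnj13 values given above did not overlap, since the lowest tropicamide pool was at 1076 and the highest saline pool at 1061 CPM. The difference of 0.29 (SE 0.10) had an edgeR adjusted p of 0.388, from 0.0604 to 0.999 over 14 alternatives. In B0, the deeper of the class's clusters, Kcnj13 was at 1265, 1173 and 1082 CPM after tropicamide and 818, 846 and 1144 CPM after saline, and the groups overlapped. Atp1b1 changed by 0.11 (SE 0.11), Atp1b2 by -0.03 (SE 0.17) and Atp1b3 by -0.32 (SE 0.28), all with overlapping groups and edgeR adjusted p of at least 0.886. The share of Atp1b1 among beta UMIs was 81.8 ± 2.37% after tropicamide and 79.8 ± 2.67% after saline (n = 3 pools each).

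In Müller glia-like cells, where 1.59% of genes were called (109 of 6873), no member was called. Atp1b2 changed by -0.22 (SE 0.17), Atp1b3 by 0.02 (SE 0.16) and Kcnj10 by -0.15 (SE 0.23), with edgeR adjusted p of 0.663 to 0.983. The Kcnj10 difference turned to 0.12 without tropicamide pool 3, the lowest pool. Kcnj14 was at 49.9, 29.3 and 32.3 CPM after tropicamide and 13.3, 8.83 and 33.7 CPM after saline (0.96, SE 0.43, edgeR adjusted p = 0.354), and free rod RNA would give 12.7 to 21.5 CPM and 9.35 to 14.1 CPM. Cnga1, which scales that estimate, was itself called higher in these cells, at 134, 199 and 229 CPM after tropicamide against 78 to 115 CPM after saline. The share of these cells in B19, the shallower cluster, was 41.9% to 45.8% per pool after tropicamide and 20% to 28.1% after saline. The part of free rod RNA and of the cluster mix in these differences was not tested.

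In the remaining tested classes no member passed the threshold. In fibroblast-like cells 0% of genes were called by edgeR (0 of 14012, with 1748 at an unadjusted p under 0.05 and 207 called by DESeq2), and Atp1b3 changed by -0.01 (SE 0.09). Cluster B1, with Atp1b3 at 293.6 CPM, held 42.5%, 29.4% and 17.4% of the class after tropicamide and 14.6%, 27.1% and 18.6% after saline. The part of this cluster mix was not tested. Kcnj13, singled out after its values were seen, was in the whole fibroblast-like class at 3.02, 3.14 and 3.61 CPM after tropicamide against 0.899, 0.509 and 0.866 CPM (1.94, SE 0.36, edgeR adjusted p = 0.129). With no low-count filter it was called (adjusted p = 0.00853), and in the other alternatives that gave a value it was not. Free pigment epithelium RNA would give 1.79 to 1.98 CPM and 0.184 to 0.993 CPM there. In endothelial-like cells 0% were called (0 of 10569, with 628 at an unadjusted p under 0.05 and 12 called by DESeq2), with Atp1b3 at 0.05 (SE 0.11), Atp1b2 at -0.26 (SE 0.27) and Kcnj8 at -0.29 (SE 0.42). Kcnj8 lay at 0 CPM in saline pool 2, and its difference was 0.88 without saline pool 3, which had 60.3 CPM. In B4 0.0782% were called (7 of 8956), with Atp1b2 at -0.03 (SE 0.22) and Atp1b3 at 0.02 (SE 0.14). In cone-like cells 0.014% were called (1 of 7167), with Atp1b2 at 0.04 (SE 0.15) and Atp1b3 at -0.42 (SE 0.37), both with overlapping groups and an edgeR adjusted p of 1.

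**Figure D5:**
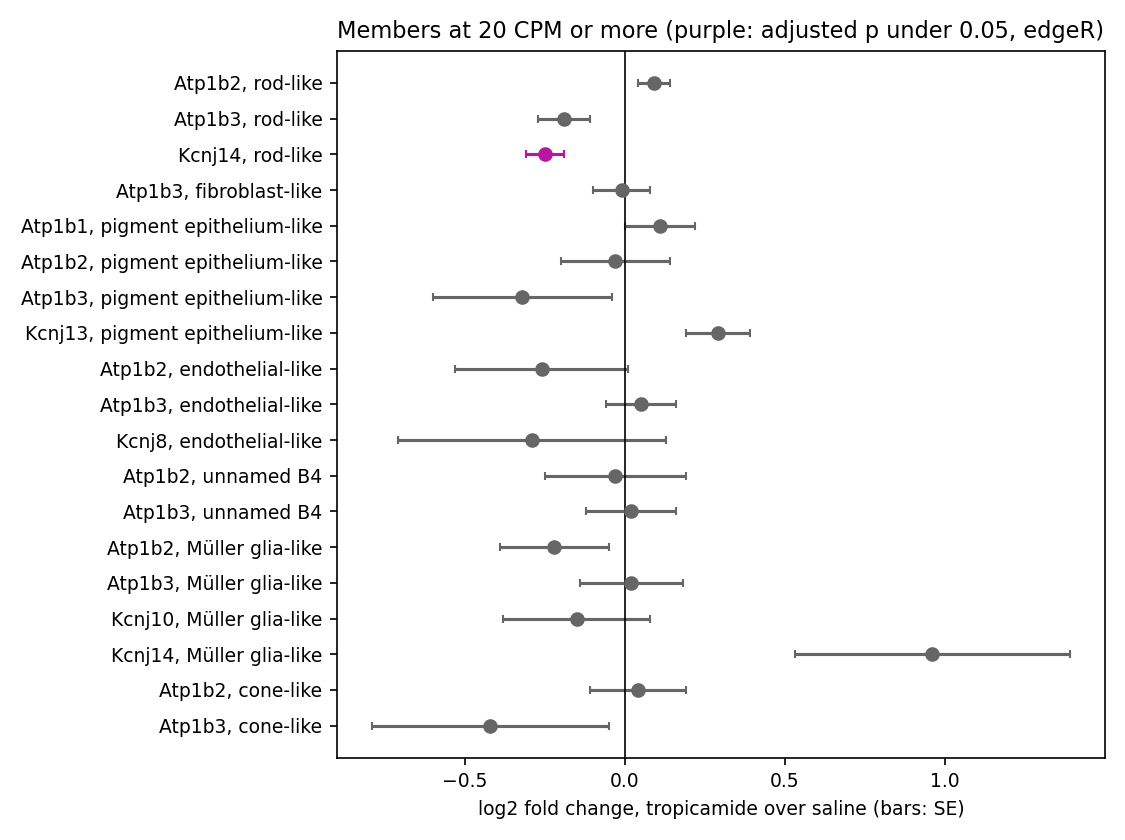
Log2 fold change of tropicamide over saline (x axis) with SE for the 19 member and class pairs of at least 20 CPM (rows), from edgeR; purple marks an adjusted p under 0.05. Kcnj14 in rod-like cells is the call (-0.25), and Kcnj14 in Müller glia-like cells has the widest error (0.96, SE 0.43).

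Of 73 other genes from 6 lists on pump, channel and ion transport, 46 were tested in rod-like cells, where 8 were called higher and none lower (17.4%, beside 10.1% of all genes tested in rods). On the list of pump subunits, regulators and partners 1 of 8 tested genes was called, Fxyd1 (phospholemman, a pump regulator), at 5.81 ± 1.10 CPM after tropicamide and 3.01 ± 1.32 CPM after saline. That call held in 7 of 14 alternatives (adjusted p up to 0.14) and was lost with the replicate block, with no doublet removal, and without any tropicamide pool, saline pool 1 or saline pool 2. The list's median log2 change was -0.06. On the photoreceptor ion transport list 4 of 13 were called, all higher, with a median of 0.19. Kcnv2 (Kv8.2), a modulatory potassium channel subunit of photoreceptors, rose by 0.22 (SE 0.05, edgeR adjusted p = 0.022), from 148 ± 1.86 to 171 ± 9.70 CPM. It was called in 10 of 14 alternatives, and not without tropicamide pool 1 or 2 or saline pool 1 or 2 (adjusted p up to 0.0785). The sodium entry genes Slc24a1, Cngb1 and Cnga1 rose by 0.30, 0.19 and 0.18. Slc24a1 was called in 14 of 14 alternatives. Cngb1 was called in 10, and not without any 1 of the tropicamide pools or saline pool 2 (adjusted p up to 0.112). Cnga1 was called in 8, and not with the replicate block or without any 1 of the tropicamide pools, saline pool 1 or saline pool 2 (adjusted p up to 0.176). On the pigment epithelium ion and lactate list 3 of 10 were called in rods, all higher. Slc16a1, a lactate transporter, was at 171, 172 and 177 CPM after tropicamide against 130, 128 and 134 CPM (0.42, SE 0.05, edgeR adjusted p = 0.00096). Slc4a7, a sodium bicarbonate cotransporter, rose by 0.21 (edgeR adjusted p = 0.0162), a call that was lost without tropicamide pool 1, tropicamide pool 2 or saline pool 2 (adjusted p up to 0.0823). Slc16a8, a lactate transporter of pigment epithelium, was at 5.25 ± 2.40 against 1.12 ± 0.493 CPM, beside the Ttr values in rods given above. The other 3 lists had no call in rods, with 1 Kir channel or receptor, 9 glial and 7 mural genes tested.

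In Müller glia-like cells 2 of 22 tested list genes were called, both higher (9.09%, beside 1.59% of all genes). These were the rod genes Slc24a1 (1.03, SE 0.25) and Cnga1 (0.89, SE 0.22), and the part of free rod RNA in them was not tested. Slc24a1 was called in 7 of 14 alternatives and Cnga1 in 5 of 14, with adjusted p up to 0.286 and 0.253. Both calls were lost with the stricter cell filter, with no doublet removal and in the largest cluster alone. Slc24a1 was also lost without tropicamide pool 1 or 3 or saline pool 1 or 3, and Cnga1 with the replicate block or without tropicamide pool 2 or 3 or any 1 of the saline pools. No list gene was called by edgeR in fibroblast-like (44 tested), endothelial-like (31), B4 (27), cone-like (22) or pigment epithelium-like cells (18).

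The classes with 10 but not 30 cells in every pool were tested as an addition chosen after seeing the data, and 12 member pairs passed the filter there with no call. Of all genes tested there, edgeR called 0 in smooth muscle-like, rod bipolar-like, cone bipolar-like and amacrine-like cells (318, 252, 115 and 188 at an unadjusted p under 0.05, and 0, 0, 0 and 1 by DESeq2) and 41 of 7514 in corneal or conjunctival epithelium-like cells. In smooth muscle-like cells Kcnj8 differed by -0.06 (SE 0.37) and Atp1b2 by -0.14 (SE 0.17). In amacrine-like cells Atp1b1 differed by 0.11 (SE 0.20). Each had overlapping groups, and no detection limit was measured for those classes.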

How the data were processed

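Each library pooled 4 right eyes. The authors deposited UMI counts per gene and barcode; per the submitters' processing notes Cell Ranger 8.0.1, STAR and GRCm39 were used. Labels describe an extraction from bone tissue with sorting, which was not used here.

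Barcodes with under 500 UMIs, under 300 genes or over 20% mitochondrial UMIs were removed, and 5922 simulated-neighbour doublets were left out. Counts scaled to 10000 gave 2000 variable genes, 30 components and 50 Leiden clusters (20 neighbours, resolution 1), named from marker lists. The limits for naming were set after clusters were seen. Counts were summed per library and class; edgeR 4.0.16 was the main test and DESeq2 1.42.0 an alternative, in R 4.3.3. Clustering used Python 3.11.15, scikit-learn 1.9.0 and leidenalg 0.10.2. The members and gene lists were chosen with earlier results of these data known. Named pairs had a mean of at least 20 CPM. Some genes of the lists, and the gene first planned to scale free rod RNA, are not reported here; list counts leave them out, and Cnga1 took that gene's place after the data were seen. Whether replicate numbers pair the pools is not known. Correlations between pools of the same number were -0.16, -0.04 and -0.12, and those of different numbers ran from -0.06 to 0.13. With 3 pools per group these values cannot settle it. The test was tested on simulated data: at a fold of 1.5 it recovered 63.3% of changed genes in rod-like cells, 22.1% in pigment epithelium-like cells and 6.45% in Müller glia-like cells. In fibroblast-like cells it recovered 32.3%, in cone-like 18.9%, in endothelial-like 14.4% and in B4 5.38%. False calls were from 2.5% (Müller glia-like) to 9.82% (fibroblast-like) of the calls. Alternatives were other size factors, DESeq2, no low-count filter, a stricter cell filter, no doublet removal, the largest cluster alone, clustering without the members, a replicate block and leaving out each pool.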

Additional observations from a re-analysis of the deposited data

How the results depend on the processing

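The 2 member calls, Kcnj14 and Atp1b1 in rod-like cells, were 0 to 2 with 1 pool left out, and the 10 calls among list genes were 4 to 12, or 23 with no low-count filter. With a replicate block the counts were 2 and 7. Whether the numbers pair the pools is not known. Changes that were not called turned sign as follows, and the cause was not tested. With 1 pool left out, log2 changes ranged from -0.06 to 0.04 for Atp1b3 in fibroblast-like, -0.15 to 0.14 for Atp1b2 in pigment epithelium-like, -0.47 to 0.02 for Atp1b2 and -0.54 to 0.88 for Kcnj8 in endothelial-like cells. In B4 they ranged from -0.22 to 0.13 for Atp1b2 and -0.02 to 0.05 for Atp1b3, in Müller glia-like cells from -0.10 to 0.09 for Atp1b3 and -0.44 to 0.12 for Kcnj10, and in cone-like cells from -0.02 to 0.12 for Atp1b2. Among the classes added later, smooth muscle-like cells gave -1.12 to 0.57 for Atp1b1, -0.05 to 0.12 for Atp1b3 and -0.39 to 0.83 for Kcnj8, and corneal or conjunctival epithelium-like cells -0.15 to 0.61 for Atp1b1. Atp1b2 gave -0.10 to 0.16 in rod bipolar-like and -0.41 to 0.01 in cone bipolar-like cells. Amacrine-like cells gave -0.04 to 0.20 for Atp1b1, -0.09 to 0.21 for Atp1b2 and -0.11 to 0.36 for Atp1b3. With no low-count filter, Atp1b2 in pigment epithelium-like cells was at 0.06 and Atp1b3 in Müller glia-like cells at -0.02, as with the stricter cell filter (-0.02). With no doublet removal, Atp1b2 in endothelial-like cells was at 0.16, Atp1b3 and Kcnj8 in smooth muscle-like cells at -0.01 and 0.16, and Atp1b1 in corneal or conjunctival epithelium-like cells at -0.01. In the largest cluster alone, Atp1b3 was at -0.11 in endothelial-like, -0.08 in Müller glia-like and -0.02 in smooth muscle-like cells, and Kcnj8 at 0.04 in the last. Clustered without the members, Atp1b3 in smooth muscle-like cells was at -0.03. With DESeq2, Kcnj8 was at 0.13 in endothelial-like and 0.04 in smooth muscle-like cells. With the replicate block it was at 0.04 and 0.14, and Atp1b1 in corneal or conjunctival epithelium-like cells at -0.03.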
